A study of Mus musculus with 25 samples.

Results

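The genes described here are 9 genes of MHC class I presentation, chosen by symbol from the 13266 genes of the deposited table. All 9 passed the filter on low values. They are the class I heavy chains H2-D1, H2-K1 and H2-T23, the light chain B2m, the peptide transporter subunits Tap1 and Tap2, tapasin (Tapbp), the aminopeptidase Erap1 and the transactivator Nlrc5. Their RNA was measured in peritoneal macrophages of mice at Day 0 of the labels, without treatment, as total RNA. WT gave 5 libraries and each of 5 knockout genotypes gave 4, which makes 25 in all. The knockouts were SAMHD1 RIG-I DKO, SAMHD1 MDA5 DKO, RIG-I KO, MDA5 KO and SAMHD1 KO. SAMHD1 is a deoxynucleotide triphosphohydrolase that restrains the interferon response to self nucleic acid, while MDA5 and RIG-I are cytosolic sensors of RNA encoded by Ifih1 and Ddx58, and a DKO lacks SAMHD1 together with the named sensor. Sources used here give no allele, strain, age or purification of the cells, and titles of the SAMHD1 KO samples use both KO and DEL for the line. Whether the libraries come from different mice is not stated in the labels, and a p-value then measures only how far these libraries spread.

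A class I molecule pairs a heavy chain with beta-2 microglobulin and holds a short peptide cut from proteins made in the cell. The TAP transporter, made of Tap1 and Tap2, moves peptides into the endoplasmic reticulum, tapasin bridges the transporter to empty class I molecules and edits the peptides they keep, and the aminopeptidase ERAP1 trims peptides to length. NLRC5 is the transactivator of the class I genes, which also carry response elements for NF-kappa B and for interferon regulatory factors in their promoters. Macrophages show class I constitutively, and interferons raise most of these genes.

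Promoters are shown as a description, and their part in the levels of these genes was not tested. RefSeq promoters (GRCm38.p6, 300 bases each around the listed start) were found for 7 of the 9 genes, and Tap2 and Nlrc5 are named only. The promoters of Tap1 and Erap1 were searched as well but are not printed. Capitals mark letters searched on both strands, which are GGG and TTCCC with 2 bases between them (kappa B element), GAAA or GAA followed after 2 bases by GAAA (interferon regulatory factor element, whose forms can overlap), TGACG (part of the X2 box), CCAAT and TATAAA.
H2-K1 (chr17:34000298-34000597, minus strand): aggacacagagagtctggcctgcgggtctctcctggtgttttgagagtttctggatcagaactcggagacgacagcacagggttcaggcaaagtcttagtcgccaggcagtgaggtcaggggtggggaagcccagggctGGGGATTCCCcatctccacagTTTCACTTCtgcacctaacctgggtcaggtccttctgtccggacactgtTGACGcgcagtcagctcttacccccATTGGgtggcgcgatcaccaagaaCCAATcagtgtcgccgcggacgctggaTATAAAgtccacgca
H2-D1 (chr17:35262844-35263143, plus strand): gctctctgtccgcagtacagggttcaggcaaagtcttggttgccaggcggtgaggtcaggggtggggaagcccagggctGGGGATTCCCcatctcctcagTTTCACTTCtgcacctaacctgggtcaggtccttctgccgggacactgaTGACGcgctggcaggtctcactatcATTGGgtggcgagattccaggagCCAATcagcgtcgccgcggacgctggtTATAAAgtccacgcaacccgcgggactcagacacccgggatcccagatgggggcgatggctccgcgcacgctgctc
B2m (chr2:122147437-122147736, plus strand): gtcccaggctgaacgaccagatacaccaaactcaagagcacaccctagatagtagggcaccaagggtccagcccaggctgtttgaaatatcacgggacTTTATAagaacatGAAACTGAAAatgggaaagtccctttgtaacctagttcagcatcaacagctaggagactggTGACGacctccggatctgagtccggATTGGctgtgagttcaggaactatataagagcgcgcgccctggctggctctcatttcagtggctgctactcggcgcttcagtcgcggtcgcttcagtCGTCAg
H2-T23 (chr17:36032652-36032951, minus strand): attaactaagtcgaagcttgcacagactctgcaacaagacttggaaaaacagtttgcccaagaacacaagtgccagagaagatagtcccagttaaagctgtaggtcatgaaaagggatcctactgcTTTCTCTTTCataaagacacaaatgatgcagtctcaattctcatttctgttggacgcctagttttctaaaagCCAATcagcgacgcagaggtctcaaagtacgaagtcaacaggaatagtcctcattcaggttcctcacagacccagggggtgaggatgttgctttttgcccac
Tapbp (chr17:33919228-33919527, plus strand): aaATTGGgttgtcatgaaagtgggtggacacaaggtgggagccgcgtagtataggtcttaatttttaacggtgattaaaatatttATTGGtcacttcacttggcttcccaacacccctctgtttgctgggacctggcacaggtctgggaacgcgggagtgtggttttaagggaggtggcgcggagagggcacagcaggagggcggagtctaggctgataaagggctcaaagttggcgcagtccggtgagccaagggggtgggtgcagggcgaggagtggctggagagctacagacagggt
The kappa B letters stood in H2-D1 and H2-K1 and in 1.75% of 32851 RefSeq promoters of this length. The interferon regulatory factor letters stood in H2-D1, H2-K1, H2-T23, B2m and Erap1, 5 of 7, and in 10.4% of all promoters. The letters TGACG were found in 4 of 7 and in 20.8% of all, CCAAT in 6 of 7 and in 37.4%, and TATAAA in 3 of 7 and in 13.6%. The promoters of H2-K1 and H2-D1 shared an identical run of 47 bases that holds the kappa B letters. Tapbp held CCAAT and none of the other motifs in its window, which says nothing about the factors that act on it. A match is a description of letters and not a binding site.

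In GRCm38, 6 of the 9 genes lie on chromosome 17, namely H2-D1 (chr17:35262730-35267499), H2-K1 (chr17:33996017-34000347), H2-T23 (chr17:36029773-36032855), Tap1 (chr17:34187553-34197225), Tap2 (chr17:34203527-34216321) and Tapbp (chr17:33915899-33929292). The others are B2m (chr2:122147686-122153083), Nlrc5 (chr8:94434356-94527272) and Erap1 (chr13:74639568-74693201). Counts cover whole genes, so exons, introns and UTRs were not told apart. Of the 50-base windows of a transcript, 14.3% for H2-D1, 8.11% for H2-K1 and 15% for H2-T23 occur in another gene as well, so the authors' counting could split such reads and these levels are uncertain. Tapbp overlaps Zbtb22 on its own strand. Tap1 overlaps Psmb9, Erap1 overlaps Cast and Nlrc5 overlaps 9330175E14Rik on the opposite strand, and the strand setting of the counting is not stated in the sources.

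Libraries held between 25886469 and 39590589 reads in the listed genes. The fewest reads behind any value of a described gene were 450, for Nlrc5, so counting error is small beside the spread over all 25 libraries. Within a genotype the spread could be narrow, as for Tap1 in SAMHD1 RIG-I DKO with a coefficient of variation of 2.60%, and counting error then weighs more. Samhd1 had means of 9904 ± 2293 normalized counts in WT (SD, n = 5) and 2186 ± 1731 in SAMHD1 KO (SD, n = 4), Ifih1 fell to at most 14.9 normalized counts in any MDA5 KO library, and Ddx58 to at most 212 in any RIG-I KO library. The libraries labelled SAMHD1 KO library 2 and SAMHD1 MDA5 DKO library 3 went against their labels in part, with Samhd1 at 4767 and 4952 normalized counts, against 10.8% to 18.7% of the WT mean in the other libraries that lack SAMHD1. WT library 5 was low in Samhd1 for a library with intact SAMHD1, at 6486 normalized counts or 65.5% of the WT mean. The rest of the SAMHD1-intact libraries lay between 89.4% and 132%. SAMHD1 KO library 2 and WT library 3 lay apart at -63.9 and -50.9 on principal component 1, which held 20.3% of the variance, against -20.7 to 25.8 for the others. All 14 listed markers of large peritoneal macrophages were measured, and their summed level lay between 1663682 and 2802739 normalized counts. B cell markers summed to between 132 and 4367 normalized counts in libraries with intact RIG-I but to between 66.1 and 94.7 in those without RIG-I. In such bulk RNA, fewer cells of a type and less RNA per cell cannot be told apart.

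Per kilobase of exon, H2-D1 was the most abundant at 78304 ± 13350 normalized counts (SD over 25 libraries), followed by B2m at 68428 ± 11777 and H2-K1 at 28232 ± 6264. H2-T23, the non-classical heavy chain known as Qa-1 that presents to NK and CD8 T cell receptors, stood at 5629 ± 1185 per kilobase and Tapbp at 5391 ± 906. The transporter and the trimming enzyme were lower, with Tap2 at 670 ± 102, Tap1 at 473 ± 139 and Erap1 at 439 ± 63.7 per kilobase. Nlrc5 was the least abundant at 106 ± 40.4 per kilobase. Variation among libraries ran from a coefficient of 14.5% for Erap1 to 38.0% for Nlrc5.

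**Figure D1:**
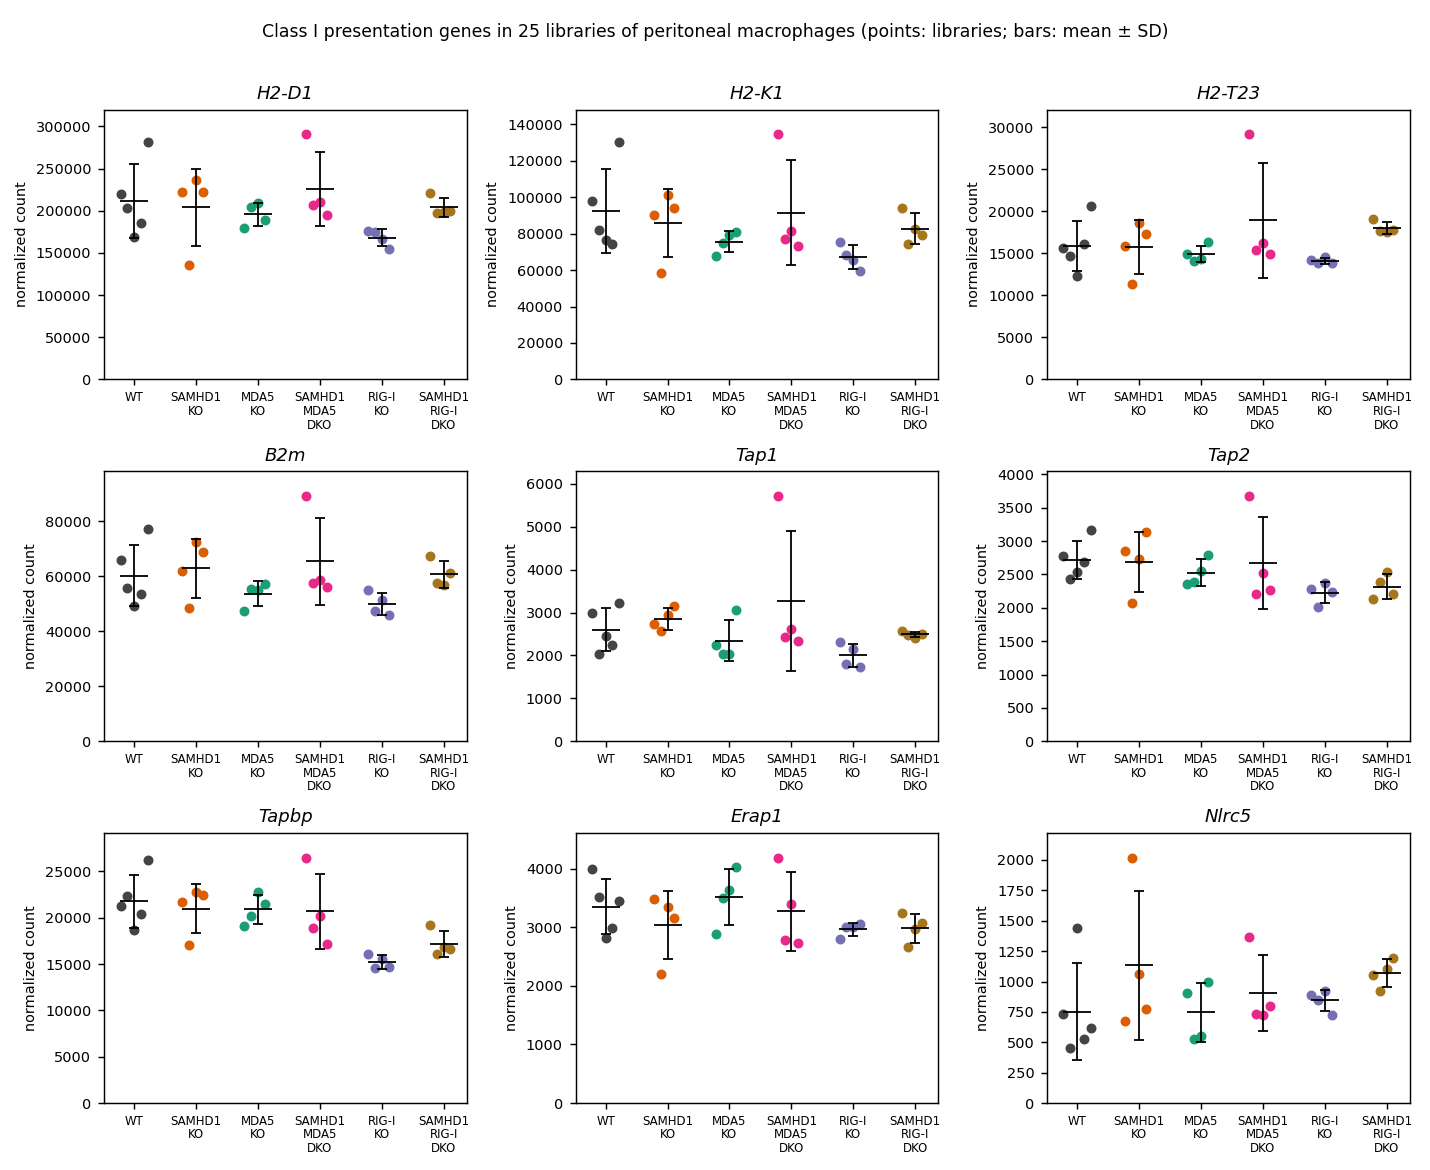
Normalized count (vertical axis, from 0) of each gene in each library, grouped by genotype on the horizontal axis; points are libraries in order of their number, and bars show the mean ± SD. RIG-I KO has the lowest mean for 8 of the 9 genes, and the highest SAMHD1 MDA5 DKO point is library 1 in every panel.

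In the limma fit of all 25 libraries, Tapbp was the only one of the 9 genes called in any comparison. Other settings called H2-T23, H2-K1 or H2-D1, as given below, and a missing call does not show an equal level. Tapbp was 1.42-fold lower in RIG-I KO than in WT (log2 fold change -0.51 ± 0.12 SE, adjusted p = 0.0200 by limma). The F-test over the 6 genotypes gave adjusted p = 0.0294. With 1 library left out the F-test gave adjusted p from 0.0120 to 0.0754, and its call was lost without any RIG-I KO library or without SAMHD1 RIG-I DKO library 2 or 4. RIG-I KO against WT called 558 of 13252 genes, 4.21% (2.97% in the lower direction), so a single call among 9 genes says little about the group. The F-test called 9.87% of genes, against 1 of the 9. Of the other 8 genes, 7 had a negative log2 fold change in RIG-I KO against WT and none was called. The median over the 9 was -0.29, against 0.00 over all genes tested.

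The WT libraries held 21243, 22390, 18639, 20409 and 26213 normalized counts of Tapbp. The RIG-I KO libraries held 16110, 14609, 15589 and 14655, all below the lowest WT library. The SAMHD1 RIG-I DKO libraries held 19271, 16120, 16857 and 16613, which overlapped with WT through library 1 alone. The SAMHD1 KO libraries were at 21659, 17032, 22741 and 22427, with library 2 lowest. MDA5 KO libraries were at 19127, 20138, 22788 and 21527, and SAMHD1 MDA5 DKO libraries at 26470, 18911, 20240 and 17166. Both overlapped with WT. The mean of Tapbp was highest in WT at 21779 ± 2831 (SD, n = 5), with SAMHD1 KO at 20965 ± 2661, MDA5 KO at 20895 ± 1600 and SAMHD1 MDA5 DKO at 20697 ± 4050 close below it (SD, n = 4 each). It was 17215 ± 1404 for SAMHD1 RIG-I DKO and 15241 ± 735 for RIG-I KO. Of the neighbours in that order, only SAMHD1 RIG-I DKO and RIG-I KO did not overlap.

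The call for Tapbp in RIG-I KO against WT was lost on leaving out any of the RIG-I KO libraries 1 to 4 or WT library 5, with adjusted p between 0.0517 and 0.0726 and log2 fold changes between -0.53 and -0.44, and in a fit of RIG-I KO and WT alone (adjusted p = 0.0634). In the authors' deposited table Tapbp was at -0.51 in RIG-I KO against WT (adjusted p = 0.00105) and at -0.34 in SAMHD1 RIG-I DKO against WT (adjusted p = 0.0295). That table calls 8.85% and 16.1% of genes in these comparisons and none of the other 8 genes. For SAMHD1 RIG-I DKO against SAMHD1 KO, where 10.5% of genes were called, Tapbp was at -0.28 ± 0.12 (SE, adjusted p = 0.141). Without WT library 3 and SAMHD1 KO library 2 that difference was -0.37 and called (adjusted p = 0.0275), and after quantile normalization it was -0.36 and called (adjusted p = 0.0352). These settings call 16% and 10.9% of all genes.

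Markers of other cells moved in the same comparison. In RIG-I KO against WT, 9 of 10 B cell markers and 4 of 5 measured mast cell markers were called lower, against 2.97% of all genes. So were 2 of 5 dendritic cell markers and 1 of 3 measured T and NK cell markers. The medians were -3.68 for B cells and -3.36 for mast cells. Ighm, the IgM heavy chain, fell by 4.52 on the log2 scale. Of 14 large peritoneal macrophage markers 2 were called lower as well, Csf1r, the receptor for colony-stimulating factor 1, at -0.47 (limma adjusted p = 0.0310) and Selp, which encodes P-selectin, at -0.39 (adjusted p = 0.0164). The 10 B cell markers summed to 132 to 2432 normalized counts in WT and to 66.1 to 86.1 in RIG-I KO. Mast cell markers summed to 18.0 to 194 in WT and to 0 to 16.7 in RIG-I KO. WT library 3 had the lowest B cell marker sum of WT, 132, and the lowest WT level of Tapbp, 18639, which was still above the 4 RIG-I KO libraries. Their part in the Tapbp difference was not tested.

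**Figure D2:**
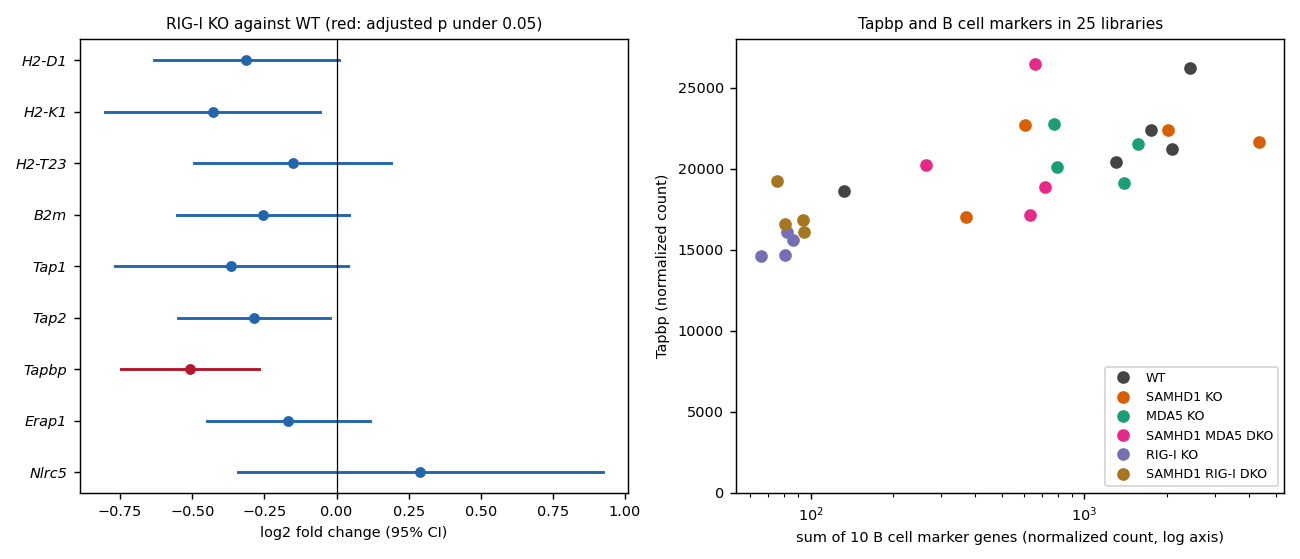
Left, log2 fold change of each gene in RIG-I KO against WT with its 95% confidence interval, red where the adjusted p was under 0.05; Tapbp alone is red, at -0.51. Right, normalized count of Tapbp (vertical axis, from 0) against the summed B cell markers (horizontal log axis) in 25 libraries, coloured by genotype; RIG-I KO and SAMHD1 RIG-I DKO libraries lie at 66.1 to 94.7 on the horizontal axis.

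Other genes of the pathway were mixed in RIG-I KO against WT, where 4.21% of all genes were called, 2.97% in the lower direction. Of 14 measured rows for other class I heavy chains and relatives none was called, and of 21 genes of peptide supply and loading 1 was, Npepps, a cytosolic aminopeptidase, at -0.31 ± 0.08 (SE, limma adjusted p = 0.0426). Of 21 genes for transcription of class I genes, 4 fell: Rela at -0.47 and Nfkb1 at -0.28, which encode NF-kappa B subunits, Nfyc at -0.22, a subunit of the CCAAT-binding factor, and Suz12 at -0.30, a Polycomb subunit. None of 7 MHC class II genes was called, their median was -0.42, and Cd74, the invariant chain, was at -0.87.

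The heavy chains and B2m carried the highest levels and varied together. The WT libraries held 98103, 82099, 76328, 74590 and 130154 normalized counts of H2-K1, so library 5 alone set the upper end. RIG-I KO libraries held 75196, 68487, 65793 and 59357, overlapping with WT through library 1. In RIG-I KO against WT H2-K1 was at -0.43 ± 0.18 (SE, limma adjusted p = 0.147) and H2-D1 at -0.31 ± 0.15 (adjusted p = 0.215). Without WT library 3 and SAMHD1 KO library 2, a setting that calls 15.7% of all genes, both were called, H2-K1 at -0.49 (adjusted p = 0.0447) and H2-D1 at -0.39 (adjusted p = 0.0294). H2-D1 stood at 219460, 203145, 168594, 185544 and 281390 normalized counts in WT and at 176114, 174274, 167069 and 154490 in RIG-I KO. WT library 3 lay inside the RIG-I KO range and the other WT libraries above it.

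B2m, the light chain shared by all these heavy chains, was at 65708, 55764, 49111, 53412 and 77086 normalized counts in WT. RIG-I KO libraries held 54970, 47466, 51482 and 45807, which overlapped with WT. SAMHD1 RIG-I DKO libraries held 67207, 57522, 56715 and 61226, all above the RIG-I KO libraries. For H2-T23 the RIG-I KO libraries held 14202, 13817, 14568 and 13802 normalized counts, a coefficient of variation of 2.58%. The SAMHD1 RIG-I DKO libraries held 19142, 17648, 17523 and 17778 of H2-T23, again all above RIG-I KO. WT libraries covered both ranges, at 15699, 14653, 12300, 16175 and 20606.

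The series asks whether the response to SAMHD1 loss depends on MDA5. In SAMHD1 KO against WT none of the 9 was called, with 2 genes called in all (0.0151%). Their median log2 fold change was -0.03, against 0.00 over all genes, with 3 positive and 6 negative. The highest was Nlrc5 at 0.58 ± 0.31 and the lowest Erap1 at -0.15 ± 0.14 (SE, limma adjusted p = 0.965 for each). The 95% interval of B2m, from -0.23 to 0.36, leaves room for changes of either sign. Nlrc5 was at 0.26 without SAMHD1 KO library 2 and at 0.85 without WT library 3, Erap1 at -0.00088 without SAMHD1 KO library 2, and Tap1 at 0.07 without WT library 2 in place of 0.15. The count of positive values turned to 8 of 9 without SAMHD1 KO library 2 (median 0.12) and also without WT library 5 (median 0.05).

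Without RIG-I, loss of SAMHD1 (the SAMHD1 RIG-I DKO minus RIG-I KO) gave 9 positive log2 fold changes of 9, of which none was called, where 9 genes were called in all (0.0679%). The median was 0.28, against 0.00 over all genes, of which 50.6% were positive. H2-T23 was 1.28-fold higher (0.35 ± 0.17 SE), Nlrc5 was at 0.34 ± 0.32, Tap1 at 0.33 ± 0.21, H2-K1 at 0.30 ± 0.19, B2m and H2-D1 at 0.28 ± 0.15 and 0.28 ± 0.16, and Tapbp at 0.17 ± 0.12, each with adjusted p = 1.00 by limma. Tap2 (0.06 ± 0.13) and Erap1 (0.01 ± 0.14) lay near 0. For H2-D1, H2-T23, B2m, Tap1 and Tapbp the libraries of the genotypes did not overlap, 5 of 9, against 2.63% of all genes in that direction. These genes varied together over libraries (r up to 0.92, for H2-D1 with B2m), so they do not count as separate results. Tapbp was separated only narrowly, at 16110 in RIG-I KO library 1 and 16120 in SAMHD1 RIG-I DKO library 2. Fitted alone, these 2 genotypes gave 68 called genes (0.513%), among them H2-T23 (adjusted p = 0.0169, the other 8 genes 0.174 or more). B cell marker sums were alike here, 66.1 to 86.1 and 75.2 to 94.7 normalized counts. MHC class II genes summed to 13343 to 24734 in RIG-I KO and to 22263 to 30991 in SAMHD1 RIG-I DKO. Interferon-inducible GTPases and relatives summed to 14805 to 19718 in RIG-I KO and to 19439 to 22818 in SAMHD1 RIG-I DKO. The part of these lists in the values of the 9 genes was not tested.

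In SAMHD1 MDA5 DKO against MDA5 KO 7 of the 9 were positive, with a median of 0.23 against 0.00 over all genes, and none was called where 1 gene was called in all (0.00755%). Tap1 was highest at 0.39 ± 0.21 (SE) and Erap1 lowest at -0.11 ± 0.14 (limma adjusted p = 0.999 for each). This comparison rested on SAMHD1 MDA5 DKO library 1: without it the median was 0.06 and Tap1 was at 0.09. That library held 5718 normalized counts of Tap1, the other SAMHD1 MDA5 DKO libraries 2429, 2614 and 2331. MDA5 KO libraries held 2248, 2041, 2039 and 3054, so library 4 overlapped with the DKO.

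Averaged over the 3 backgrounds, loss of SAMHD1 gave positive values for 8 of the 9 genes and no call, where 98 genes were called in all (0.74%). The median was 0.14, against 0.01 over all genes, of which 52.2% were positive. Nlrc5 was at 0.40 ± 0.18 (SE, adjusted p = 0.651), Tap1 at 0.29 ± 0.12 (adjusted p = 0.508), H2-T23 at 0.21 ± 0.10 (adjusted p = 0.690) and B2m at 0.20 ± 0.09 (adjusted p = 0.582) by limma. These 4 had an unadjusted p under 0.05 (0.0395, 0.0209, 0.0467 and 0.0289), as did 3.41% of all genes in the higher direction. Tap1, H2-T23 and B2m varied together over libraries (r from 0.77 to 0.87), so they do not count as separate results. Leaving out 1 library brought Nlrc5 as low as 0.29, Tap1 0.19, H2-T23 0.13 and B2m 0.15. H2-K1 and H2-D1 were at 0.14 ± 0.11 and 0.14 ± 0.09, Tapbp and Tap2 at 0.03 ± 0.07 and 0.03 ± 0.08, and Erap1 at -0.09 ± 0.08. Without SAMHD1 MDA5 DKO library 1 the median was 0.09 and 6 of 9 were positive.

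**Figure D3:**
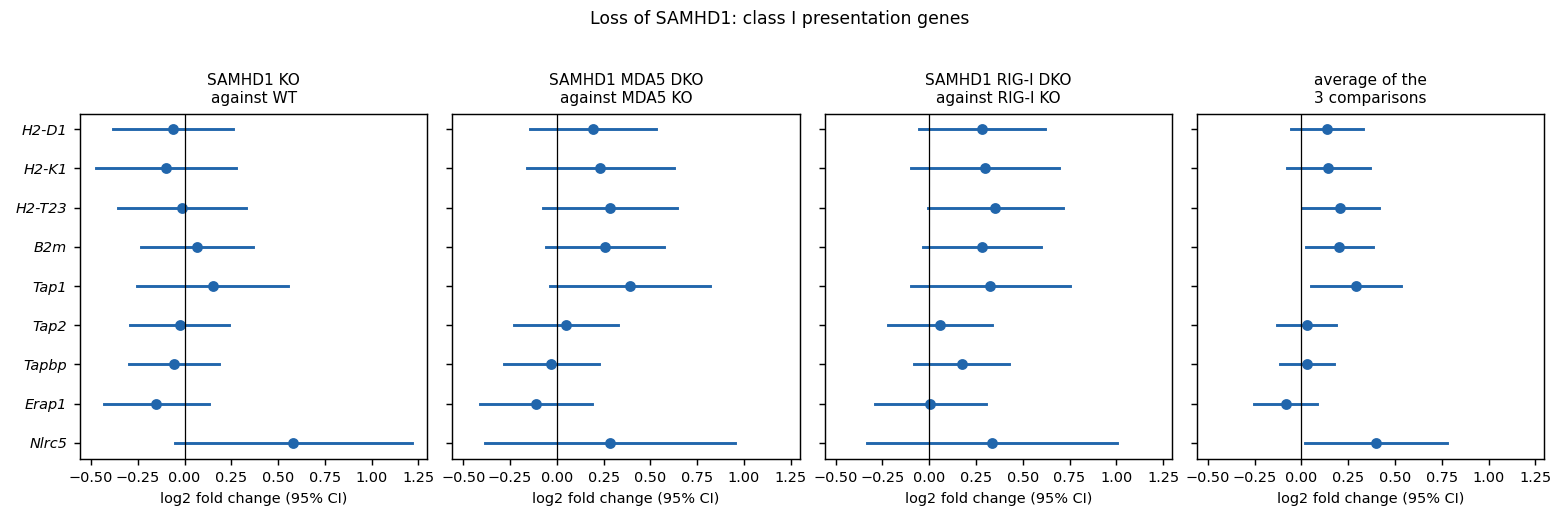
Log2 fold change (horizontal axis) with its 95% confidence interval for each gene in the 3 comparisons that differ by loss of SAMHD1 and in their average. All 9 points lie right of 0 in the comparison without RIG-I, and no gene had an adjusted p under 0.05 in any panel.

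Interferon-stimulated genes moved more in the same average, where 0.74% of all genes were called in either direction. Of 16 listed type I interferon-stimulated genes 14 rose, with a median of 0.97, Irf7, a regulator of interferon genes, at 1.14 ± 0.12 and Isg15, the ubiquitin-like modifier, at 0.92 ± 0.14 (SE, limma adjusted p = 1.8e-05 and 0.000744). Among other class I heavy chains and relatives 1 of 14 measured rows rose, H2-T24 at 0.57 ± 0.11 (adjusted p = 0.00990), and their median was 0.29. Sharing of reads between H2-T24 and other class I genes was not measured, so its level is uncertain. Of 21 genes for transcription of class I genes only Irf9, an interferon regulatory factor, rose, at 0.22 ± 0.05 (adjusted p = 0.0394). Irf1 was at 0.26 ± 0.12 (adjusted p = 0.711). None of 21 genes of peptide supply and loading was called. The immunoproteasome subunits Psmb9 and Psmb8 were at 0.20 ± 0.11 and 0.17 ± 0.11. None of 15 interferon-inducible GTPases and relatives was called, with a median of 0.49, nor any of 7 MHC class II genes, with a median of 0.13. Cell markers moved in this average too: of 8 measured markers of small peritoneal macrophages and monocytes Plac8 rose at 2.23 ± 0.45 (SE, adjusted p = 0.0138), and of 14 of large peritoneal macrophages the chemokine Cxcl13 fell at -0.79 ± 0.18 (SE, adjusted p = 0.0394). Their part in the values of the 9 genes was not tested. Within the RIG-I-deficient pair, 4 of the 16 interferon-stimulated genes were called higher on loss of SAMHD1, with a median of 1.08. Of all genes, 0.0679% were called there in either direction.

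MDA5 KO against WT called 9 genes (0.0679%) and none of the 9 described here. Their median was -0.09, from -0.26 ± 0.18 for H2-K1 to 0.07 ± 0.14 for Erap1 (SE, limma adjusted p = 0.854 and 0.958). Without WT library 5 the median was 0.01 with 5 of 9 positive, in place of 2 of 9. SAMHD1 MDA5 DKO against SAMHD1 KO called 0.121% of all genes and none of the 9, which lay between -0.24 ± 0.32 for Nlrc5 and 0.23 ± 0.17 for H2-T23. Without SAMHD1 MDA5 DKO library 1 H2-T23 was at 0.00088, and the median of the 9 was -0.12 with 2 positive, in place of 0.08 with 6 positive. The median was -0.04 with 3 positive without SAMHD1 KO library 2. Between the DKOs (SAMHD1 MDA5 minus SAMHD1 RIG-I), where 0.158% of genes were called, the 9 lay between -0.29 ± 0.32 for Nlrc5 and 0.28 ± 0.21 for Tap1, with none called. Without SAMHD1 MDA5 DKO library 1 Tap1 was at -0.02 there, and 3 of 9 were positive in place of 8. Several of these comparisons share WT or SAMHD1 KO libraries, so their values are not independent of each other.

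The interactions ask whether the effect of SAMHD1 loss differs with and without a sensor. No gene was called by limma for either, with 368 genes (2.78%) at an unadjusted p under 0.05 for MDA5 and 375 (2.83%) for RIG-I, and none of the 9 among them. H2-K1 was highest in each, at 0.33 ± 0.26 for MDA5 and 0.40 ± 0.26 for RIG-I, and Nlrc5 lowest, at -0.30 ± 0.44 and -0.24 ± 0.44 (SE). The 95% interval for H2-K1 ran from -0.21 to 0.88 for MDA5 and from -0.14 to 0.94 for RIG-I, so each leaves room for either sign. H2-K1 is named as the highest of the 9, a choice that favours high values. With 1 library left out, H2-K1 was as low as 0.13 for MDA5, without SAMHD1 MDA5 DKO library 1, and 0.22 for RIG-I, without SAMHD1 KO library 2. Without SAMHD1 MDA5 DKO library 1 the median of the 9 for MDA5 was -0.06 in place of 0.19.

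Nlrc5 showed no relation with the other genes that passed the test over all libraries. The WT libraries held 735, 451, 1438, 523 and 618 normalized counts of Nlrc5, with library 3 far above the others. SAMHD1 KO libraries held 674, 2018, 1063 and 776, with library 2 the highest of all 25. Those are the libraries that stood apart on the first principal component. In RIG-I KO it was at 885, 845, 922 and 727, in SAMHD1 RIG-I DKO at 1056, 918, 1101 and 1195, with 1 DKO library inside the RIG-I KO range. MDA5 KO libraries fell into a low and a high pair, at 530 and 551 and at 906 and 996, and SAMHD1 MDA5 DKO libraries held 1366, 735, 722 and 797. Across genotypes the mean ran from 746 ± 240 in MDA5 KO to 1133 ± 613 in SAMHD1 KO (SD, n = 4 each), and neighbours in that order overlapped throughout.

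In SAMHD1 KO library 2 Nlrc5 was highest while H2-D1 (135971), H2-K1 (58380), H2-T23 (11337) and Erap1 (2198) were at their lowest of the 25 libraries. Over 25 libraries Pearson's r of Nlrc5 with the other 8 genes lay between -0.37 for Erap1 and 0.37 for Tap1, and Spearman's rho between -0.31 and 0.33. None of the 8 relations passed adjustment (permutation test with 100000 resamples, two-sided; smallest adjusted p = 0.295 for r and 0.386 for rho). Raw p was 0.0684 for Erap1 and 0.0737 for Tap1. Without the 2 libraries farthest from the median of Nlrc5, SAMHD1 KO library 2 and WT library 2, r was -0.08 for Erap1 and 0.38 for Tap1. After removal of genotype means r with Tap1 was 0.41 (raw p = 0.0451, adjusted p = 0.330 by permutation) and rho 0.48 (raw p = 0.0147, adjusted p = 0.118 by permutation). That permutation did not allow for the removed means, so its p-values can be too small. Without SAMHD1 MDA5 DKO library 1, r with Erap1 passed at -0.55 (adjusted p = 0.0464 by permutation) and rho did not (adjusted p = 0.126 by permutation).

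The other 8 genes varied together over libraries. Over the 28 pairs without Nlrc5, r lay between 0.45 (Tap1 with Erap1) and 0.95 (H2-K1 with B2m), with a median of 0.75, and between 0.57 and 0.97 after removal of genotype means. These values describe 25 libraries whose genes share depth, normalization and cell mixture. H2-K1 followed the mean of the other 8 genes most closely (r = 0.94), then B2m (0.93), Tap1 (0.87) and H2-D1 (0.87), while Erap1 was at 0.61 and Nlrc5 at -0.09.

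**Figure D4:**
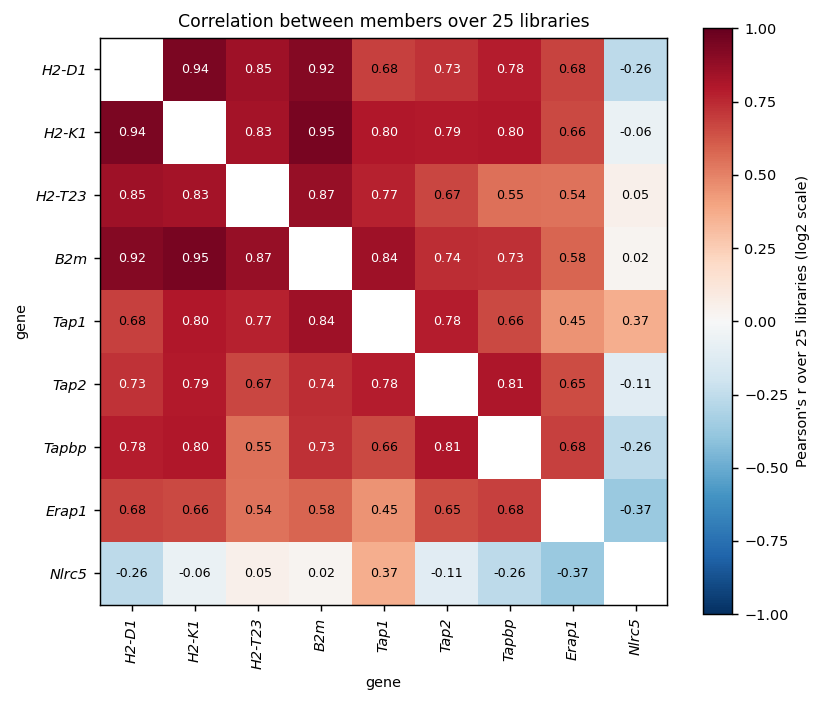
Pearson's r between each pair of genes over 25 libraries on the log2 scale, as colour and number. The 28 pairs without Nlrc5 lie between 0.45 and 0.95, the 8 pairs with Nlrc5 between -0.37 and 0.37.

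A single library set much of that range. SAMHD1 MDA5 DKO library 1 had the highest level of all 25 for 8 of the 9 genes, all but Nlrc5, with 134665 normalized counts of H2-K1, 29203 of H2-T23, 89167 of B2m and 3677 of Tap2. WT library 5 was the runner-up for 7 of them. In units of each gene's standard deviation over libraries, averaged over the 9, SAMHD1 MDA5 DKO library 1 stood at 2.45, WT library 5 at 1.31 and RIG-I KO library 4 at -1.12. MHC class II genes were high in the same libraries, summing to 186776 normalized counts in SAMHD1 MDA5 DKO library 1 and to 99074 in WT library 5. Elsewhere the class II sum lay between 13343 and 59376. Its part in the class I levels was not tested.

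**Figure D5:**
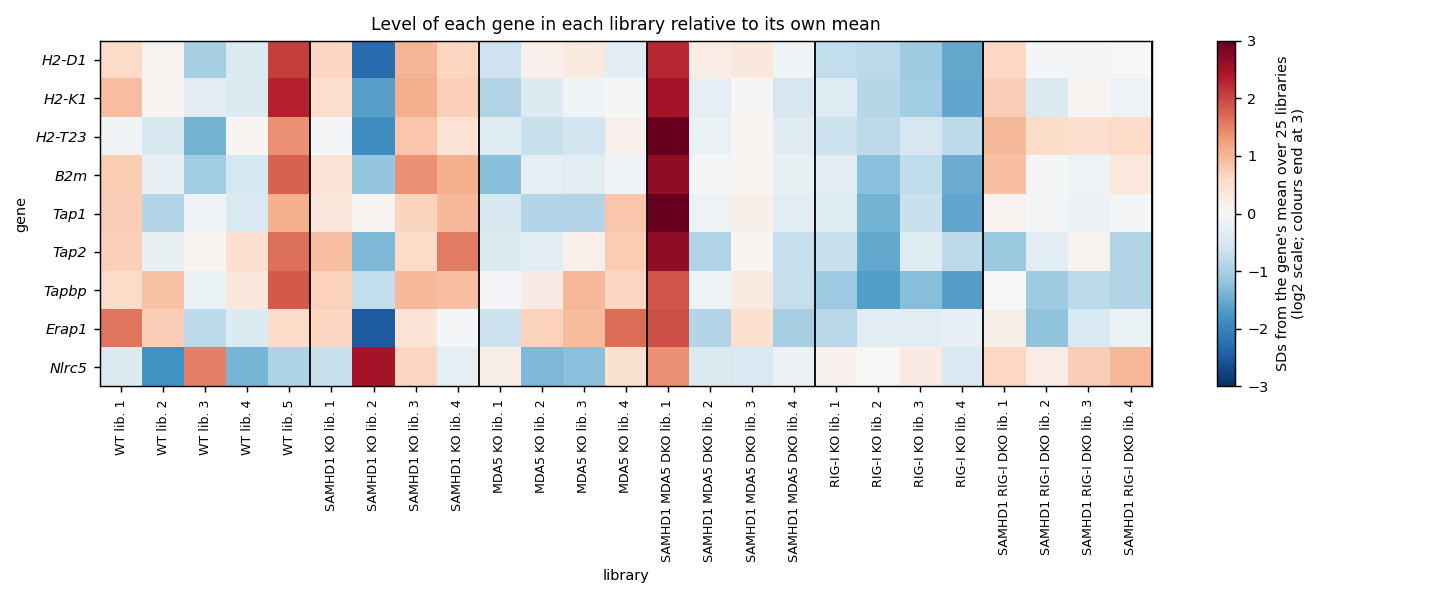
Level of each gene (rows) in each library (columns, by genotype), in standard deviations from the gene's own mean over 25 libraries on the log2 scale, with colours ending at 3. SAMHD1 MDA5 DKO library 1 is high in all rows, and in SAMHD1 KO library 2 Nlrc5 goes opposite to the heavy chains.

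Over 25 libraries the average standardized level of the 9 genes had r = 0.81 with the mean level of 7 MHC class II genes, 0.73 with 15 interferon-inducible GTPases and relatives and 0.47 with the 16 type I interferon-stimulated genes. It was 0.70 with the genes for transcription of class I genes and 0.56 with those of peptide supply and loading. Among marker lists r ran from -0.29 (dissociation and immediate early genes) to 0.52 (large peritoneal macrophages), with T and NK cells at 0.46. Among the 10 other genes whose pattern was most like that average were Ly6e (r = 0.91), the row listed as H2-T22 with H2-T9 (0.88), Irgm2 (0.85), Slco3a1 (0.85), Tmem67 (0.84), Ifitm3 (0.84), Cd74 (0.82), Adcy4 (0.82) and Irgm1 (0.82). After removal of genotype means their r lay between 0.80 for Tmem67 and 0.96 for Ly6e. These are descriptions over libraries that share SAMHD1 MDA5 DKO library 1, with no test.

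Tap1 and Tap2 work as one transporter. Tap1 reached 3.29 times its lowest level over 25 libraries and Tap2 1.83 times. Each peak was in SAMHD1 MDA5 DKO library 1, at 5718 normalized counts for Tap1, and the next highest library was WT library 5, with 3228 of Tap1 and 3174 of Tap2. Under averaged loss of SAMHD1 Tap1 was at 0.29 ± 0.12 and Tap2 at 0.03 ± 0.08 (SE), a difference between genes that was not tested. Tap2 ran from 2009 normalized counts in RIG-I KO library 2 to 3677 in SAMHD1 MDA5 DKO library 1. In RIG-I KO against WT the libraries did not overlap for Tap2 and Tapbp, 2 of 9 against 7.15% of all genes in that direction, and Tap2 was at -0.29 ± 0.13 (SE, limma adjusted p = 0.168). Tap2 and Tapbp varied together over libraries (r = 0.81), so they do not count as separate results. Erap1, the trimming enzyme, had means from 2964 ± 113 in RIG-I KO to 3508 ± 476 normalized counts in MDA5 KO (SD, n = 4 each), and its F-test gave adjusted p = 0.632 by limma.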

How the data were processed

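Per the labels' protocols, pBWA 0.5.9-r32-MPI-patch2 aligned reads and bedtools 2.16.2 was used with Ensembl Gene 61, while DESeq2, Salmon, STAR and R 4.1.2 stand without roles in the submitters' processing notes, beside GRCm38 and mm10; the accounts differ. Each library's deposited values are variance-stabilized log2 values with a floor of 5.81, as the values show. Deposited group means are normalized counts, a signal per genotype. The authors' deposited log2 fold changes and p-values served as an alternative. Inverting the transformation gave normalized counts that matched the deposited group means to a relative 8.52e-14, all of them whole reads at a tolerance of 0.01. Columns name the genotype, and library numbers follow column order. Within genotypes library pairs differed by 13.1 or more in chi-square per degree of freedom, so none was a duplicate.

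limma 3.58.1 (trend, robust; R 4.3.3, statmod 1.5.0) was fitted to log2(normalized count + 1) of all libraries, with genotype as factor and Benjamini-Hochberg adjustment over 13252 genes that had at least 10 normalized counts in at least 4 libraries (14 were left out). Called means adjusted p under 0.05, two-sided. Fold changes are on this scale, which understates those of low genes. The fit was tested on simulated data. All 9 genes are named, and other genes where called, extreme in a list or most alike in pattern. Members and lists were chosen with earlier results of these data known. Other settings were pseudocounts of 0.5 and 5, no filter, the deposited values, voom with TMM factors, quantile normalization, fits of 2 genotypes and left-out libraries. Results for some genes are not reported here.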

Additional observations from a re-analysis of the deposited data

Results flagged for a closer look

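Dixon's test flags about 1 in 20 sets by chance. With it, 54 sets of 4 or 5 libraries within genotypes were searched for a library far from the rest, and 9 stood out. The sets share libraries and genes that varied together, so the 9 flags do not count as separate results. Of these, 4 were high values in SAMHD1 MDA5 DKO library 1: 29203 normalized counts of H2-T23 (nearest other 16184), 89167 of B2m (58751), 5718 of Tap1 (2614) and 1366 of Nlrc5 (797). In SAMHD1 KO library 2, H2-D1 was low at 135971 (221980) and Tapbp low at 17032 (21659). In SAMHD1 RIG-I DKO library 1, H2-D1 was high at 220947 (199310) and H2-T23 high at 19142 (17778). Erap1 was low in RIG-I KO library 1 at 2796 (3006). Without SAMHD1 MDA5 DKO library 1, the median log2 fold change of the 9 genes in SAMHD1 MDA5 DKO against MDA5 KO was 0.06 in place of 0.23.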

How the results depend on the processing

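Of 602 values under settings other than leaving out 1 library, which cover all 9 genes in 6 comparisons and only the 1 or 2 genes named as highest, lowest or called in the others, 579 kept direction and side of the threshold, 5 became called, 1 lost its call and 17 changed sign. No paired analysis was possible because the table's columns carry no replicate number of the titles. The causes of the changes below were not tested.

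Genes called in SAMHD1 KO against WT numbered 2, then 4 with pseudocount 5 or quantile normalization, 5 with the deposited values or voom, 1 in a fit of 2 genotypes or without WT library 3 and SAMHD1 KO library 2, and 26 in the authors' table. The same fit of 2 genotypes gave 0 for SAMHD1 MDA5 DKO against MDA5 KO, 68 for SAMHD1 RIG-I DKO minus RIG-I KO, 2 for MDA5 KO against WT, 1 for RIG-I KO against WT, 4 for SAMHD1 MDA5 DKO against SAMHD1 KO, 546 for the RIG-I DKO against SAMHD1 KO, and 94 between the DKOs. Without WT library 3 and SAMHD1 KO library 2 the counts were 6 for SAMHD1 MDA5 DKO against MDA5 KO, 2087 for RIG-I KO against WT, 534 and 2122 for the DKOs against SAMHD1 KO, 234 between the DKOs and 2924 in the F-test. Without the 2 libraries of intermediate Samhd1 they were 9, 975, 6 and 548 for the first 4 of these. The authors' table calls 21 genes for MDA5 KO, 1174 for RIG-I KO and 878 for SAMHD1 MDA5 DKO against SAMHD1 KO. Quantile normalization gave 2 for SAMHD1 MDA5 DKO against MDA5 KO, voom 9 for SAMHD1 MDA5 DKO against SAMHD1 KO, and between the DKOs pseudocount 5 and the deposited values gave 11 and voom 10. Of the 9 genes, the fit of 2 genotypes called 1 for SAMHD1 RIG-I DKO minus RIG-I KO and 0 for RIG-I KO against WT, where 3 were called without WT library 3 and SAMHD1 KO library 2. For SAMHD1 RIG-I DKO against SAMHD1 KO, 1 was called by that setting and 1 by quantile normalization.

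Sign changes in SAMHD1 KO against WT came without WT library 3 and SAMHD1 KO library 2 for H2-D1 (0.0456), H2-K1 (0.0143), H2-T23 (0.0480) and Tap2 (0.0727), without the libraries of intermediate Samhd1 for H2-D1 (0.122), H2-K1 (0.0745), H2-T23 (0.135), Tap2 (0.0962) and Tapbp (0.0416), and by quantile normalization for H2-T23 (0.0493) and Tapbp (0.00665). Quantile normalization put Erap1 at -0.000217 in SAMHD1 RIG-I DKO minus RIG-I KO, and the authors' table has Nlrc5 at -0.0131 in MDA5 KO against WT. Nlrc5 in SAMHD1 MDA5 DKO against SAMHD1 KO was 0.0848 without WT library 3 and SAMHD1 KO library 2 and 0.175 without the libraries of intermediate Samhd1, which put its interactions at 0.116 for MDA5 and 0.0796 for RIG-I. Counts of positive genes among the 9 went from 8 to 5 between the DKOs and from 3 to 5 for SAMHD1 RIG-I DKO against SAMHD1 KO by quantile normalization, and from 6 to 3 for SAMHD1 MDA5 DKO against SAMHD1 KO without WT library 3 and SAMHD1 KO library 2. Correlations of Nlrc5 became 0.154 with H2-K1 and 0.0193 with Tap2 without the 2 farthest libraries, and -0.0773 with H2-T23 and -0.106 with B2m within genotypes.

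Leaving out 1 library at a time, genes called ranged over 0 to 9 (SAMHD1 KO against WT), 0 to 8 (SAMHD1 MDA5 DKO against MDA5 KO), 0 to 13 (SAMHD1 RIG-I DKO minus RIG-I KO), 78 to 1253 (RIG-I KO against WT), 8 to 1465 and 188 to 2177 (the MDA5 and the RIG-I DKO against SAMHD1 KO), 10 to 34 (between the DKOs) and 666 to 2178 (F-test), and members called over 0 to 1 for RIG-I KO against WT and the F-test. Log2 fold changes in SAMHD1 KO against WT ranged over 0.257 to 0.846 (Nlrc5), -0.221 to -0.000884 (Erap1), 0.0703 to 0.236 (Tap1), -0.144 to 0.122 (H2-D1), -0.189 to 0.0745 (H2-K1), -0.103 to 0.135 (H2-T23), -0.00846 to 0.186 (B2m), -0.103 to 0.0962 (Tap2) and -0.109 to 0.0416 (Tapbp). In MDA5 KO against WT they ranged over -0.170 to 0.0145 (H2-D1), -0.157 to 0.0291 (H2-T23), -0.107 to 0.0156 (Tapbp), -0.0990 to 0.325 (Nlrc5) and -0.00301 to 0.158 (Erap1). In SAMHD1 MDA5 DKO against MDA5 KO Tap2 ranged over -0.114 to 0.133 and Tapbp over -0.155 to 0.0536. Erap1 ranged over -0.0364 to 0.0603 in SAMHD1 RIG-I DKO minus RIG-I KO, and under averaged loss of SAMHD1 Tap2 over -0.0274 to 0.0681 and Tapbp over -0.0121 to 0.0618. Nlrc5 ranged over -0.455 to 0.0848 in SAMHD1 MDA5 DKO against SAMHD1 KO and Tap1 over -0.0204 to 0.411 between the DKOs. The interaction of H2-K1 ranged over 0.133 to 0.426 for MDA5 and 0.224 to 0.488 for RIG-I, and that of Nlrc5 ranged over -0.564 to 0.0256 for MDA5 and -0.510 to 0.0796 for RIG-I. Without SAMHD1 MDA5 DKO library 1 the correlation of Nlrc5 was -0.203 with H2-T23, -0.169 with B2m and -0.551 with Erap1.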
